A study of Arabidopsis thaliana with 36 samples.

Results

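Transcript levels of 10 Arabidopsis thaliana genes for salicylate synthesis, its regulation and its defence outputs were measured across a hypocotyl graft. The genes are ICS1 (AT1G74710), PBS3 (AT5G13320), EDS1 (AT3G48090), PAD4 (AT3G52430), FMO1 (AT1G19250), WRKY70 (AT3G56400), PR1 (AT2G14610), PR2 (AT3G57260), PR5 (AT1G75040) and SNC1 (AT4G16890). They were taken as a list of loci, drawn up with earlier results of these data known, and make up 10 of the 33341 loci in the deposited count table. RNA-seq libraries came from seedlings grown for 7 days and, for grafts, collected 24 h after grafting. The 4 genotypes were a mutant labelled dof quadruple, the erf114,115 double mutant, the anac071,096 double mutant and wild-type Col-0. Each genotype was sampled as a scion piece of 0.5 mm above the junction, a rootstock piece of 0.5 mm below it, and a 1 mm piece of intact hypocotyl, with 3 biological replicates in each of the 12 groups (36 libraries). Scion and rootstock of a graft came from different plants, and 1 cotyledon had been removed from all seedlings, the intact ones included, so every comparison with intact tissue is between seedlings that share this wound. The number of plants pooled in a library and the individual lesions of the dof quadruple mutant were not stated in the labels.

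Salicylate is a plant defence hormone made mainly from chorismate in the chloroplast. ICS1 converts chorismate to isochorismate, and PBS3 couples isochorismate to glutamate in the cytosol, after which salicylate is released. EDS1 and PAD4 are lipase-like partner proteins that relay signals of intracellular immune receptors such as SNC1 and raise ICS1 transcription during infection. FMO1 makes the related signal N-hydroxypipecolate, WRKY70 is a transcription factor downstream of salicylate, and PR1, PR2 and PR5 encode secreted proteins that are standard readouts of salicylate signalling.

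The libraries were of similar depth, the shallowest at 19.5 M counts, the deepest at 30.5 M and the median at 23.8 M. Levels are given as CPM, counts relative to library size after scaling by TMM factors, which ran from 0.784 to 1.31. At this depth a floor of 3 counts in a library corresponded to 0.0852 to 0.168 CPM, a limit that covers counting error only. The Col-0 rootstock library of replicate 1 stood apart in that 2514 loci had counts there and in no other library, against at most 34 in any of the others. To check the labels, a gene for each mutant was compared with Col-0. DOF6 was taken as a gene mutated in the dof quadruple line although the labels do not list its lesions, so it cannot by itself establish that label. It had 1 count over the 9 dof quadruple libraries, against 178 counts over the Col-0 scion, 114 over the Col-0 rootstock and 78 over the Col-0 intact libraries. ERF115 averaged 0.882 CPM in erf114,115 scions and 63.9 CPM in Col-0 scions, and ANAC071 averaged 5.88 CPM in anac071,096 scions and 23.7 CPM in Col-0 scions. As checks of the tissue, the root tip gene PLT1 was at 0 in all groups except the Col-0 rootstock, where its highest value was 0.0997 CPM, and 6 root hair genes together reached at most 0.498 CPM in any library. Both maxima were in the Col-0 rootstock group, which includes the library with 2514 loci of its own.

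Per length of transcript and averaged over the 36 libraries, EDS1 was the most abundant of the 10 genes at 17.7 CPM per kb, followed by SNC1 at 13.8, ICS1 at 10.2, PAD4 at 3.88 and WRKY70 at 3.63 CPM per kb. The PR outputs, PBS3 and the N-hydroxypipecolate gene lay far below: PR5 was at 0.343, PBS3 at 0.253, FMO1 at 0.008, PR2 at 0.00385 and PR1 at 0.00141 CPM per kb. Thus EDS1, SNC1, ICS1, PAD4 and WRKY70 were readily detected in these hypocotyls, PR5 and PBS3 were scarce, and FMO1, PR1 and PR2 were at or near the detection floor. Of the 10 genes, 7 had enough counts to be tested, and FMO1, PR1 and PR2 did not, with 12 counts in all for FMO1, 5 for PR2 and 1 for PR1.

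The 250 bases before the annotated start of 4 of these genes are shown because their transcripts differed between tissues or genotypes in what follows. They come from RefSeq's TAIR10.1 assembly and are written 5′ to 3′ on the strand of the gene. Capitals mark TTGAC, the core bound by WRKY factors, and GAAATTT, a sequence bound by the activators CBP60g and SARD1, on either strand. The regions are chr1:28070045-28070294 (plus strand) for ICS1, chr3:17758148-17758397 (minus strand) for EDS1, chr3:19430845-19431094 (plus strand) for PAD4 and chr4:9505973-9506222 (minus strand) for SNC1.
ICS1: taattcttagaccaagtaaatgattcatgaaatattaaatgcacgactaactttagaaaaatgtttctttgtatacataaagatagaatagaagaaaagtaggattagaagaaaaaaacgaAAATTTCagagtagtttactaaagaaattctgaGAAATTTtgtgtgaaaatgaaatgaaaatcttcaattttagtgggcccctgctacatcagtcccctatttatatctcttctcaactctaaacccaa
EDS1: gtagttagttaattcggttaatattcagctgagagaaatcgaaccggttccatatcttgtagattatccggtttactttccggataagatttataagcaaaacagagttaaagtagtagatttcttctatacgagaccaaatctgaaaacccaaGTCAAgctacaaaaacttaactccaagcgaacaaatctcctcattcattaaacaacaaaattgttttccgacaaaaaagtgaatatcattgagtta
PAD4: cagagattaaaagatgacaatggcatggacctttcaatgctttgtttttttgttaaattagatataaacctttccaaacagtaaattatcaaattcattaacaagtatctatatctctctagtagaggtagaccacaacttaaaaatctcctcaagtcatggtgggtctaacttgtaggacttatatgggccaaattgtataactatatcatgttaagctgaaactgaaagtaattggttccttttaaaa
SNC1: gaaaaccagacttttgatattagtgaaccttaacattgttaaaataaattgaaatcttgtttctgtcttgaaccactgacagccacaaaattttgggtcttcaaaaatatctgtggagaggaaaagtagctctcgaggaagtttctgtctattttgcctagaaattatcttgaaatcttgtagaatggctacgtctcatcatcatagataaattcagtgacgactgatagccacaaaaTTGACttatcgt

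The ICS1 window held GAAATTT on both strands, from -129 to -123 and from -96 to -90 relative to the gene start. A match of TTGAC lay from -96 to -92 in the EDS1 window and from -12 to -8 in the SNC1 window, and the PAD4 window held neither motif. Over all 10 genes, TTGAC occurred in 5 windows, against 44.9% of 27443 protein-coding gene windows of the same length. GAAATTT occurred in 2 (ICS1 and FMO1), against 12.5% of all windows. Of the other motifs searched on both strands, TTGACC was in 0 of the 10 windows (12.2% of all windows), TTGACT in 3 (19.1%), TGACG, the core bound by TGA factors, in 2 (18.6%) and CACGTG in 2 (6.49%). TTGACC and TTGACT contain TTGAC, so these counts overlap. The matches describe letters in these windows and were not tied to any measured binding.

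Levels of 4 of the 7 tested genes differed between scion and rootstock in every genotype. Their differences from intact tissue depended on the gene and on the side of the junction. ICS1 and SNC1 were lower on the scion side than in intact hypocotyl in every genotype. PAD4 passed as lower there in dof quadruple, anac071,096 and Col-0, EDS1 passed as higher on the rootstock side in the same 3 genotypes, and all 4 were lower in the scion than in the rootstock in every genotype. Calls are from edgeR's quasi-likelihood test with a Benjamini-Hochberg adjusted p under 0.05 over 19476 loci in each comparison. Against intact tissue, in the scion 0 of the 7 tested members rose and 3 fell in the dof quadruple mutant, where 54.2% of all tested loci were called, 28.7% higher and 25.6% lower. In erf114,115 scions 0 rose and 2 fell (50.3% of loci called, 28.7% higher and 21.6% lower). In anac071,096 scions 0 rose and 3 fell (49.9%, 27% higher and 22.9% lower), and in Col-0 scions 0 rose and 3 fell (54.2%, 29% higher and 25.2% lower). In the rootstock, 2 rose and 0 fell in the dof quadruple mutant (40.3% of loci called, 22.9% higher and 17.4% lower) and 2 rose and 0 fell in erf114,115 (44.8%, 26.9% higher and 17.9% lower). In anac071,096 rootstocks 2 rose and 1 fell (38.1%, 21.7% higher and 16.4% lower), and in Col-0 rootstocks 1 rose and 1 fell (39.7%, 22.6% higher and 17% lower). Between scion and rootstock, 0 members were higher and 4 lower in the scion in each genotype, with 39.8% of loci called in the dof quadruple mutant (19.7% higher and 20.1% lower), 46.8% in erf114,115 (23.6% and 23.1%), 45.9% in anac071,096 (23.3% and 22.6%) and 46.2% in Col-0 (23.5% and 22.7%). With both directions together, 2 to 4 of the 7 tested genes were called in each comparison, against 38.1% to 54.2% of all loci. The 4 called between scion and rootstock were all lower in the scion, where 20.1% to 23.1% of loci were lower. Whether the 7 genes differ from loci in general was not tested, and a list this short gives only coarse shares. In these bulk pieces, fewer cells of a type and less RNA per cell cannot be told apart.

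Between genotypes, 1 member fell in the dof quadruple mutant in each tissue, and it was SNC1 each time. All loci were called at 1.5% in scions, 3.73% in rootstocks and 4.59% in intact pieces, and called as lower at 1.1%, 2.09% and 1.73% in these tissues. In erf114,115 against Col-0, 0 members passed in scions, rootstocks or intact pieces, where 0.893%, 0.38% and 0.0308% of loci were called. In anac071,096 against Col-0, 0 passed either, with 0.385% of loci called in scions, 0.863% in rootstocks and 0.0411% in intact pieces. In these 6 comparisons 0 members had an unadjusted p under 0.05 and DESeq2 called 0. The response to grafting, the change from intact tissue in a mutant minus that in Col-0, passed for 0 members by edgeR and 0 by DESeq2 in all 6 comparisons. For scions 0.945% of loci were called in the dof quadruple mutant, 0.0513% in erf114,115 and 0.0462% in anac071,096. For rootstocks 0.899%, 0.0462% and 0.205% of loci were called in the same order of mutants. An unadjusted p under 0.05 occurred for 1 member in each of 3 response comparisons: EDS1 in dof quadruple scions, WRKY70 in dof quadruple rootstocks and EDS1 in erf114,115 rootstocks.

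**Figure D1:**
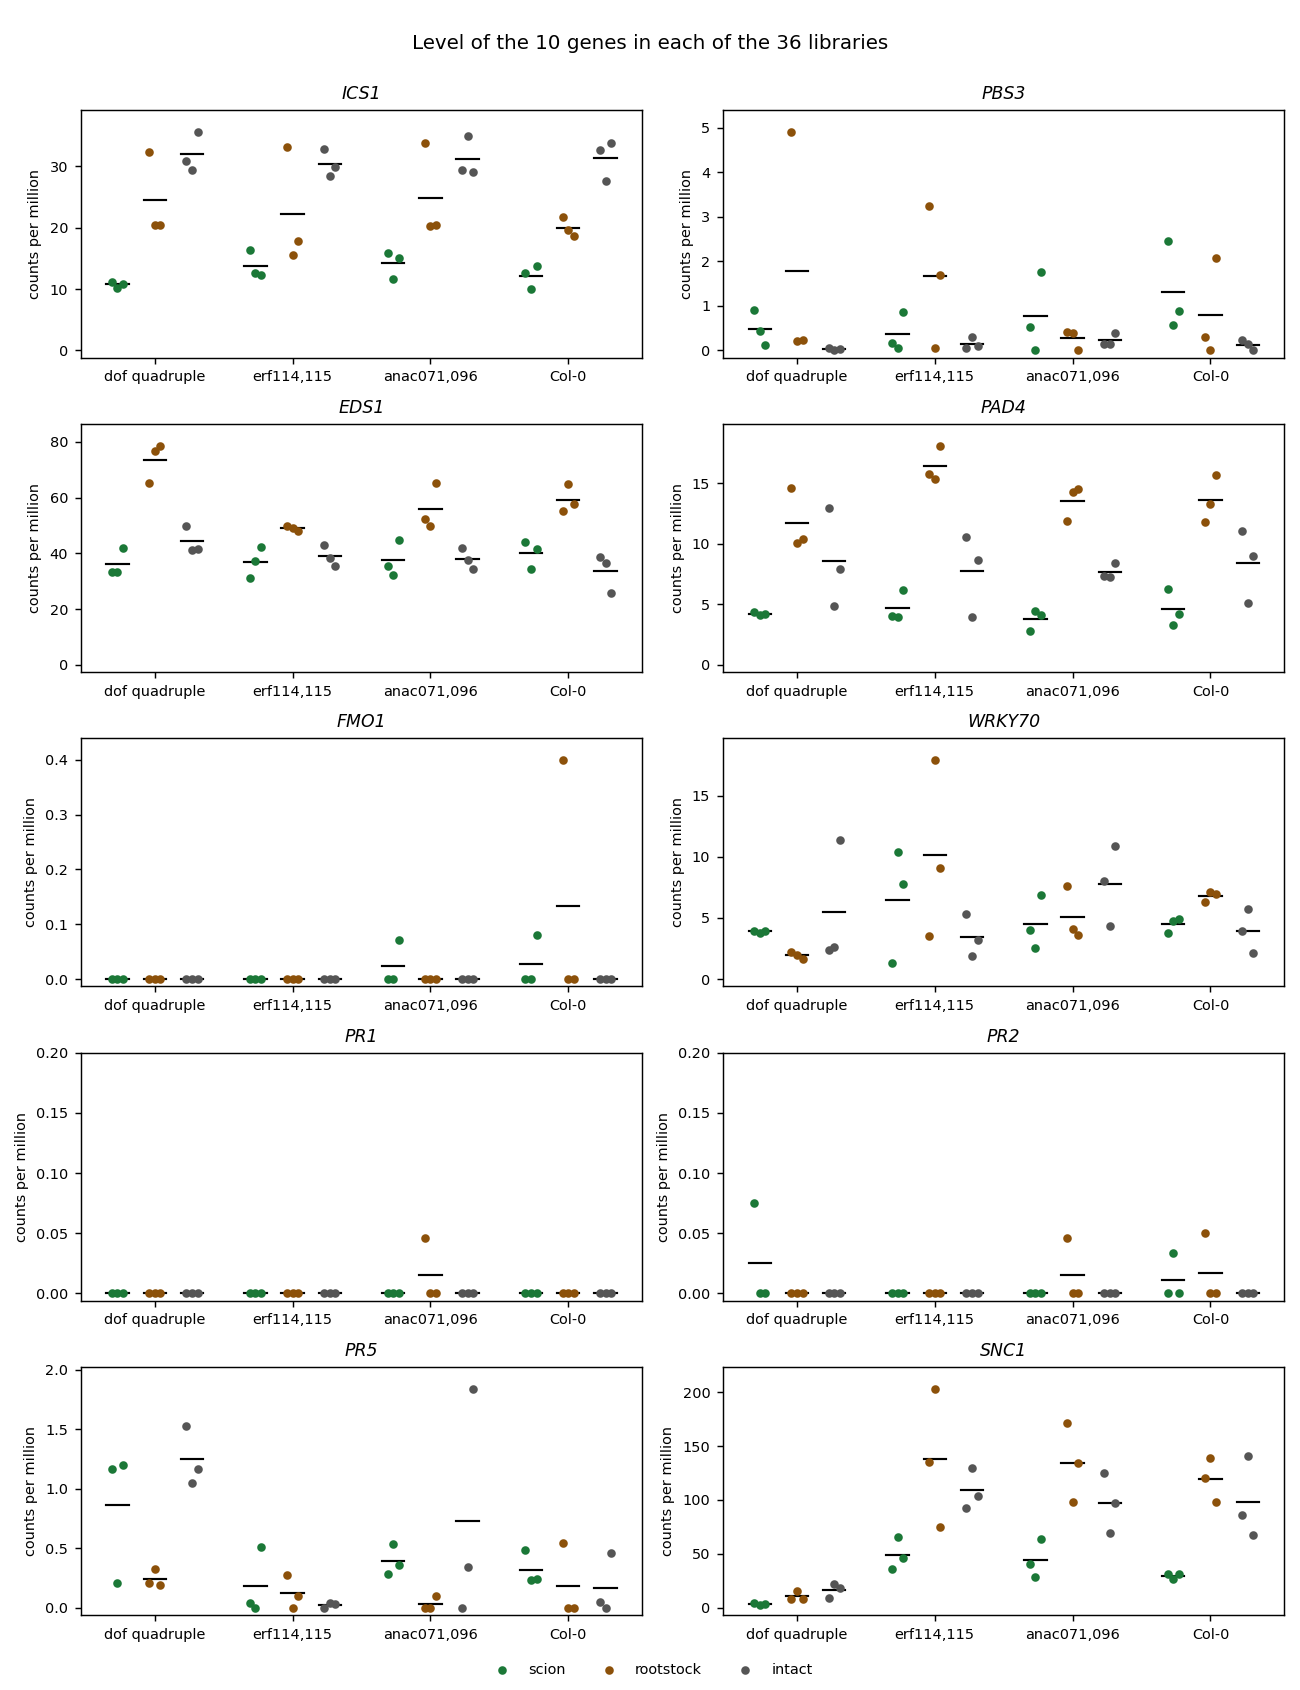
Each dot is the level of a gene in CPM in 1 library on a linear axis, and each dash is the mean of 3 libraries. The groups are scion, rootstock and intact pieces of the dof quadruple, erf114,115 and anac071,096 mutants and Col-0. SNC1 sits at 2.33 to 22.3 CPM in all 9 dof quadruple libraries, below every library of the same tissue in Col-0.

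ICS1 (chr1:28070295-28074177, plus strand, TAIR10.1), the enzyme that converts chorismate to isochorismate, fell in the scion in every genotype. In dof quadruple seedlings it was at 11.2, 10.2 and 10.9 CPM in scions, 32.4, 20.5 and 20.5 CPM in rootstocks and 30.9, 29.4 and 35.7 CPM in intact hypocotyls. In erf114,115 it was at 16.3, 12.6 and 12.3 CPM in scions, 33.1, 15.6 and 17.8 CPM in rootstocks and 32.8, 28.4 and 29.9 CPM in intact pieces. Scions lay below intact pieces without overlap in both mutants. In anac071,096 it was at 15.9, 11.7 and 15.1 CPM in scions, 33.8, 20.3 and 20.5 CPM in rootstocks and 29.5, 34.9 and 29.1 CPM in intact pieces. In Col-0 it was at 12.7, 10 and 13.8 CPM in scions, 21.7, 19.6 and 18.6 CPM in rootstocks and 32.7, 27.6 and 33.8 CPM in intact pieces. The intact level was nearly the same in the 4 genotypes, between 30.4 and 32 CPM on average, and scions lay below intact pieces in all 4. The log2 change of scion against intact was -1.57 ± 0.23 (SE) in dof quadruple, -1.15 ± 0.23 in erf114,115, -1.14 ± 0.23 in anac071,096 and -1.36 ± 0.23 in Col-0, with adjusted p of 1.1e-06, 8.6e-05, 1e-04 and 8.1e-06 by edgeR's quasi-likelihood test with Benjamini-Hochberg adjustment. The rootstock held an intermediate level. Against intact tissue ICS1 fell in Col-0 rootstocks (log2 -0.65 ± 0.22 SE, adjusted p = 0.021). This call was lost on leaving out intact replicate 1 (adjusted p = 0.054), intact replicate 3 (0.066), rootstock replicate 2 (0.056) or rootstock replicate 3 (0.069). In the mutants the rootstock difference was -0.39 in dof quadruple, -0.46 in erf114,115 and -0.33 in anac071,096, with adjusted p of 0.17, 0.097 and 0.27. Without rootstock replicate 1 it passed in all 3, at -0.64 in dof quadruple (adjusted p = 0.041), -0.86 in erf114,115 (0.0022) and -0.61 in anac071,096 (0.044). The erf114,115 difference also passed with upper-quartile scaling (0.02) and with a replicate block (0.027).

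The scion was also below the rootstock for ICS1, by -1.18 ± 0.23 in dof quadruple (adjusted p = 0.00013), -0.69 ± 0.22 in erf114,115 (0.013), -0.81 ± 0.22 in anac071,096 (0.0041) and -0.72 ± 0.23 in Col-0 (0.01), on the log2 scale. In erf114,115 the groups overlapped, and the call was lost without rootstock replicate 1 (adjusted p = 0.29), without scion replicate 3 (0.057) and with upper-quartile scaling (0.051). The anac071,096 call was lost without rootstock replicate 1 (adjusted p = 0.073) and the Col-0 call without scion replicate 2 (0.064). In the 3 mutants, rootstock replicate 1 was the highest of its group, at 32.4 to 33.8 CPM, and those 3 libraries reached the range of intact tissue.

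PBS3 (chr5:4267456-4271064, plus strand), the enzyme that follows ICS1, was scarce: 537 counts in 31 of the 36 libraries, an average of 0.663 CPM. Single libraries carried it. In dof quadruple rootstocks it had 4.91, 0.219 and 0.233 CPM (94, 6 and 5 counts), against 0.0509, 0 and 0.0378 CPM in intact pieces, where 1, 0 and 1 counts were found. The ratio of these sums was 60.8, with a 95% counting interval of 16.4 to 508, and the groups did not overlap. PBS3 rose in this comparison (adjusted p = 0.013, edgeR's quasi-likelihood test), but not without rootstock replicate 1 (adjusted p = 0.28) or intact replicate 2 (0.062). In scions it had 0.903, 0.424 and 0.116 CPM in dof quadruple and 2.46, 0.576 and 0.891 CPM in Col-0, against 0.23, 0.14 and 0 CPM in Col-0 intact pieces. The Col-0 scions lay above the Col-0 intact pieces, with a log2 difference of 3.34 that missed the threshold by edgeR (adjusted p = 0.064) and passed by DESeq2 (0.036). The dof quadruple scion had 39 counts over its 3 libraries and the dof quadruple intact group 2, a ratio of 19 with a counting interval of 4.92 to 162 (adjusted p = 0.079 by edgeR and 0.028 by DESeq2). In erf114,115 it had 3.25, 0.0456 and 1.69 CPM in rootstocks, against 0.0466, 0.298 and 0.104 CPM in intact pieces, and the groups overlapped. Its log2 difference of 3.42 missed the threshold by edgeR (adjusted p = 0.064) and passed by DESeq2 (0.038) and without rootstock replicate 2 (0.028). In anac071,096 it was at 0 in 1 scion and in 1 rootstock library. Between the means of the 12 groups ICS1 varied by a log2 span of 1.56 and PBS3 by 3.43. The PBS3 span rests on groups of few counts and on single libraries, so the 2 spans are not alike.

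EDS1 (chr3:17755329-17758147, minus strand), the partner protein at the centre of this signalling route, was highest in the rootstock in every genotype. In dof quadruple it was at 33.4, 33.4 and 42.0 CPM in scions, 65.4, 76.7 and 78.6 CPM in rootstocks and 49.9, 41.3 and 41.7 CPM in intact pieces. In erf114,115 it was at 31.0, 37.2 and 42.4 CPM in scions, 49.8, 49.1 and 48.2 CPM in rootstocks and 43.1, 38.5 and 35.4 CPM in intact pieces. The rootstock libraries lay above the other tissues without overlap in both. In anac071,096 it was at 35.6, 32.4 and 44.9 CPM in scions, 52.3, 49.7 and 65.3 CPM in rootstocks and 41.9, 37.6 and 34.4 CPM in intact pieces. In Col-0 it was at 44.1, 34.3 and 41.6 CPM in scions, 55.1, 64.9 and 57.6 CPM in rootstocks and 38.7, 36.5 and 25.8 CPM in intact pieces. The rootstock libraries again lay above both other tissues. Against intact tissue, EDS1 rose in rootstocks of dof quadruple (log2 0.73 ± 0.16 SE, adjusted p = 0.00046), of anac071,096 (0.55 ± 0.16, 0.0063) and of Col-0 (0.82 ± 0.16, 0.00013). The erf114,115 rootstock difference was 0.33 ± 0.16 and did not pass (adjusted p = 0.094), and the anac071,096 call was lost without rootstock replicate 3 (0.057). The scion against intact difference did not pass in any genotype, with log2 differences of -0.29, -0.08, -0.01 and 0.25 in dof quadruple, erf114,115, anac071,096 and Col-0 (adjusted p of 0.13, 0.7, 0.95 and 0.19).

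Scion against rootstock, EDS1 was lower by -1.02 ± 0.16 in dof quadruple (adjusted p = 9.3e-06), -0.41 ± 0.16 in erf114,115 (0.036), -0.57 ± 0.16 in anac071,096 (0.0045) and -0.57 ± 0.16 in Col-0 (0.0045). The erf114,115 call was lost in 7 of 11 alternatives: without scion replicate 1 (adjusted p = 0.15), scion replicate 2 (0.053), rootstock replicate 1 (0.077), rootstock replicate 2 (0.066) or rootstock replicate 3 (0.055), with upper-quartile scaling (0.22) and with no filter on low counts (0.054). A near-identical copy of EDS1 at AT3G48080 held 1 to 12 counts in each group, too few to test, and how the counting shared reads between the pair is not given in the sources used here, so the EDS1 values carry that uncertainty.

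PAD4 (chr3:19431095-19434450, plus strand), which pairs with EDS1, had its lowest mean in the scion and its highest in the rootstock in every genotype. In dof quadruple it was at 4.4, 4.1 and 4.18 CPM in scions, 14.6, 10.1 and 10.4 CPM in rootstocks and 13.0, 4.87 and 7.89 CPM in intact pieces. In erf114,115 it was at 4.02, 3.98 and 6.16 CPM in scions, 15.8, 15.4 and 18.1 CPM in rootstocks and 10.6, 3.91 and 8.66 CPM in intact pieces. Every scion library lay below every rootstock library of its genotype, and the intact pieces spread widely, overlapping the rootstocks in dof quadruple and the scions in erf114,115. In anac071,096 it was at 2.82, 4.45 and 4.1 CPM in scions, 11.9, 14.3 and 14.5 CPM in rootstocks and 7.37, 7.28 and 8.43 CPM in intact pieces. In Col-0 it was at 6.25, 3.29 and 4.21 CPM in scions, 11.8, 13.3 and 15.7 CPM in rootstocks and 11.1, 5.14 and 8.99 CPM in intact pieces. Scions lay below rootstocks without overlap here too. Scion against rootstock gave log2 differences of -1.46 ± 0.32 in dof quadruple, -1.80 ± 0.32 in erf114,115, -1.84 ± 0.33 in anac071,096 and -1.57 ± 0.32 in Col-0, with adjusted p of 0.00065, 3.8e-05, 3.4e-05 and 0.00022 by edgeR's quasi-likelihood test. These 4 calls were kept in all alternatives.

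The steps on either side of the intact level were less secure for PAD4. Scion against intact passed in dof quadruple (-1.01 ± 0.32, adjusted p = 0.009), anac071,096 (-1.02 ± 0.32, 0.01) and Col-0 (-0.87 ± 0.32, 0.023) and not in erf114,115 (-0.70 ± 0.32, 0.067). The erf114,115 difference passed in 4 of 11 alternatives: with size factors of the DESeq2 type (0.046), by DESeq2 (0.037), without intact replicate 2 (-1.02, 0.0088) and without scion replicate 3 (-0.95, 0.035). The dof quadruple call was lost without intact replicate 1 (adjusted p = 0.14) and the anac071,096 call without scion replicate 1 (0.06). The Col-0 call was lost without intact replicate 1 (0.14), intact replicate 3 (0.057), scion replicate 2 (0.12) or scion replicate 3 (0.069). Rootstock against intact passed in erf114,115 (1.09 ± 0.32, adjusted p = 0.0058), but not without intact replicate 2 (0.057), and in anac071,096 (0.82 ± 0.32, 0.041), where the call was lost in 8 of 11 alternatives. These were leaving out intact replicate 1 (0.096), 2 (0.11) or 3 (0.062) or rootstock replicate 2 (0.093) or 3 (0.095), both other scalings (0.056 and 0.094) and no filter (0.057). It did not pass in dof quadruple (0.45 ± 0.32, 0.27) or Col-0 (0.70 ± 0.32, 0.081). Without intact replicate 1 it passed in dof quadruple (0.87, 0.042) and in Col-0 (0.95, 0.037), and in Col-0 also with a replicate block (0.037).

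**Figure D2:**
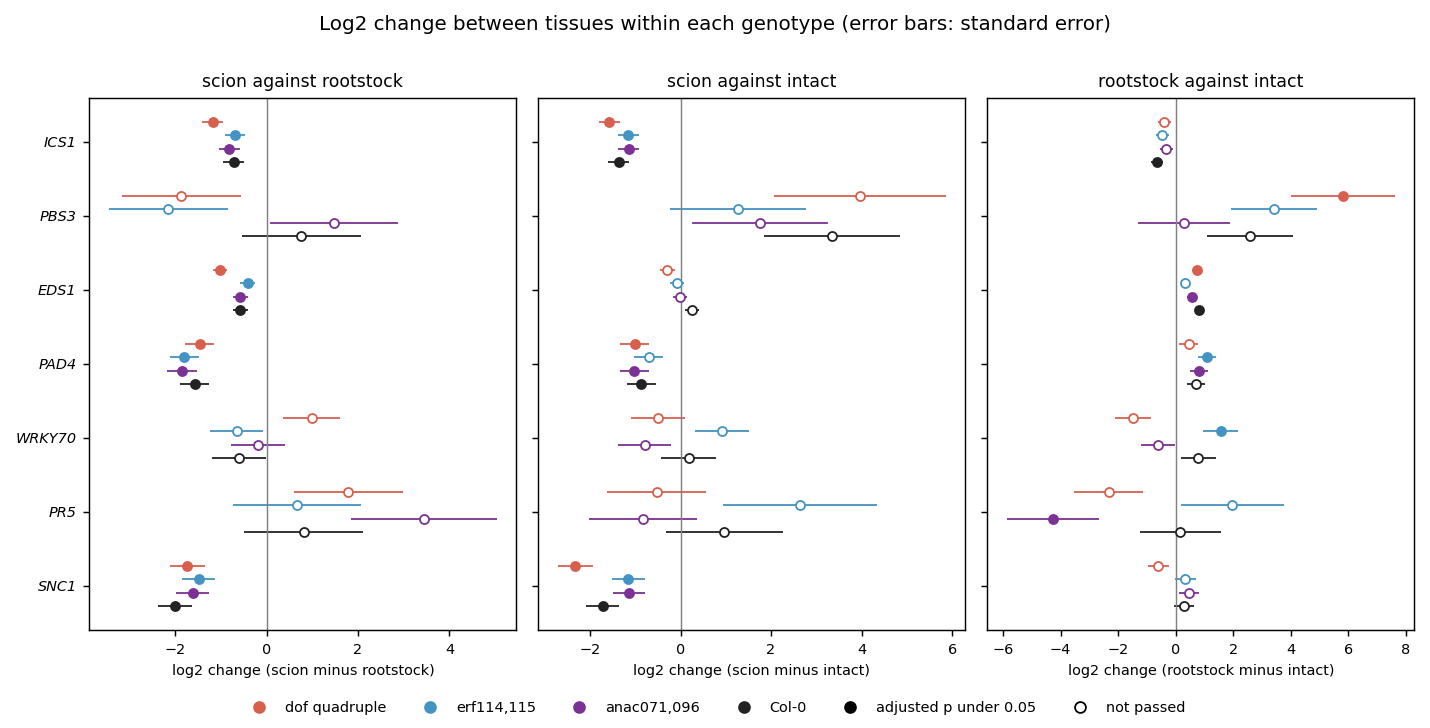
Log2 changes of the 7 tested genes, with bars of 1 standard error, for scion against intact, rootstock against intact and scion against rootstock in each genotype; filled symbols passed the test. ICS1 and SNC1 are below 0 in scion against intact in all 4 genotypes, and EDS1 is between 0.33 and 0.82 in rootstock against intact.

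SNC1 (chr4:9500271-9505972, minus strand), an intracellular receptor of the TIR-NB-LRR class whose overactive form switches on salicylate defence, fell in the scion and stood out in the dof quadruple mutant. In dof quadruple seedlings it was at 4.48, 2.33 and 3.14 CPM in scions, 8.41, 15.9 and 8.5 CPM in rootstocks and 9.42, 22.3 and 17.9 CPM in intact pieces. The highest of these libraries, at 22.3 CPM, was below the lowest library of every other genotype in any tissue. In erf114,115 it was at 35.9, 65.9 and 45.9 CPM in scions, 135, 203 and 74.6 CPM in rootstocks and 92.8, 130 and 104 CPM in intact pieces. In anac071,096 it was at 40.8, 28.3 and 63.3 CPM in scions, 171, 97.9 and 134 CPM in rootstocks and 125, 69.3 and 97.5 CPM in intact pieces. In Col-0 it was at 31.7, 26.7 and 31.2 CPM in scions, 120, 139 and 98.5 CPM in rootstocks and 86.3, 141 and 67.7 CPM in intact pieces. Rootstock and intact libraries of erf114,115 and anac071,096 overlapped those of Col-0, and all erf114,115 scions lay above the Col-0 scions. In dof quadruple against Col-0 the means were 3.32 ± 1.09 and 29.9 ± 2.77 CPM in scions, 10.9 ± 4.3 and 119 ± 20.3 CPM in rootstocks and 16.5 ± 6.55 and 98.3 ± 38.1 CPM in intact pieces (SD, n = 3 each). The transcript was thus 9-fold lower in dof quadruple scions (log2 -3.17 ± 0.40 SE, adjusted p = 3.1e-06), 10.9-fold lower in rootstocks (-3.44 ± 0.39, 5.5e-07) and 5.92-fold lower in intact pieces (-2.57 ± 0.38, 2.1e-05). These 3 calls were kept in all alternatives. The erf114,115 and anac071,096 mutants did not pass against Col-0 in any tissue, and the difference in erf114,115 scions was 0.72 ± 0.36 (log2, SE; adjusted p = 0.49).

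Within each genotype SNC1 was lower in the scion than in intact tissue, by -2.32 ± 0.39 in dof quadruple, -1.15 ± 0.36 in erf114,115, -1.14 ± 0.36 in anac071,096 and -1.72 ± 0.37 in Col-0 on the log2 scale, with adjusted p of 1.1e-05, 0.0087, 0.0092 and 0.00021. The anac071,096 call was lost without intact replicate 1 (adjusted p = 0.056) or scion replicate 2 (0.067). Scion against rootstock, it was lower by -1.73 ± 0.39 in dof quadruple, -1.48 ± 0.36 in erf114,115, -1.61 ± 0.36 in anac071,096 and -2 ± 0.37 in Col-0 (adjusted p of 8e-04, 0.0013, 0.00062 and 5.8e-05). No scion library overlapped a rootstock or intact library of its genotype. The rootstock against intact difference of SNC1 did not pass, with log2 values of -0.60, 0.34, 0.46 and 0.28 in dof quadruple, erf114,115, anac071,096 and Col-0 (adjusted p of 0.2, 0.47, 0.33 and 0.57). The scion fall in dof quadruple was present on a base already lower than in Col-0, and the difference between the scion responses of dof quadruple and Col-0 did not pass the test.

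WRKY70 (chr3:20908711-20910623, minus strand), a transcription factor between salicylate and its target genes, varied widely between replicates. In dof quadruple it was at 3.95, 3.78 and 3.95 CPM in scions, 2.25, 1.94 and 1.68 CPM in rootstocks and 2.39, 2.62 and 11.4 CPM in intact pieces. In erf114,115 it was at 1.29, 10.4 and 7.75 CPM in scions, 3.53, 17.9 and 9.09 CPM in rootstocks and 5.31, 1.91 and 3.19 CPM in intact pieces, and in anac071,096 between 2.51 and 10.9 CPM throughout. In Col-0 it was at 3.79, 4.74 and 4.9 CPM in scions, 6.33, 7.13 and 6.99 CPM in rootstocks and 3.9, 5.77 and 2.11 CPM in intact pieces. Rootstocks lay below scions in all dof quadruple libraries and above them in all Col-0 libraries. In rootstocks dof quadruple averaged 1.96 ± 0.284 CPM and Col-0 6.82 ± 0.431 CPM (SD, n = 3 each), without overlap. The log2 difference was -1.80 ± 0.62 SE and did not pass by edgeR's quasi-likelihood test (adjusted p = 0.12), while DESeq2 gave an adjusted p of 0.043. Against intact tissue, the dof quadruple rootstocks lay below all intact pieces, with a log2 difference of -1.49 that missed the threshold (adjusted p = 0.055). It passed by DESeq2 (0.026), with upper-quartile scaling (0.042) and without intact replicate 1 (-1.84, 0.028) or intact replicate 2 (-1.83, 0.033), and was -0.36 without intact replicate 3 (0.7). The erf114,115 rootstock passed in the other direction (1.56 ± 0.60, adjusted p = 0.036) although the groups overlapped, and that call was lost in 6 of 11 alternatives. These were leaving out rootstock replicate 2 (adjusted p = 0.26), rootstock replicate 3 (0.055), intact replicate 2 (0.15) or intact replicate 3 (0.097), upper-quartile scaling (0.058) and no filter on low counts (0.072).

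FMO1 (chr1:6650476-6653195, minus strand), which hydroxylates pipecolate, was found in 3 of the 36 libraries: 8 counts in Col-0 rootstock replicate 1, 2 in Col-0 scion replicate 3 and 2 in anac071,096 scion replicate 3. The first of these is the library that held 2514 loci counted nowhere else, at 0.399 CPM for FMO1. All 3 libraries of every other group were at 0, which with 3 counts over a group allows up to 0.0325 to 0.0498 CPM.

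Of the outputs, PR1 and PR2 were barely detected and PR5 was scarce. PR1 (chr2:6241640-6242541, minus strand), the usual marker of salicylate signalling, had 1 count over all 36 libraries, in anac071,096 rootstock replicate 1. PR2 (chr3:21188397-21189967, minus strand), a glucanase, had 5 counts: 2 in dof quadruple scion replicate 1 and 1 each in anac071,096 rootstock replicate 1, Col-0 scion replicate 2 and Col-0 rootstock replicate 1. Neither could be compared at this depth. PR5 (chr1:28177670-28179022, plus strand), a thaumatin-like protein, had 330 counts in 27 libraries. In dof quadruple it was at 1.17, 0.212 and 1.2 CPM in scions, 0.209, 0.329 and 0.187 CPM in rootstocks and 1.53, 1.05 and 1.17 CPM in intact pieces, against 0.484, 0.237 and 0.243 CPM in Col-0 scions, 0.548, 0 and 0 CPM in Col-0 rootstocks and 0.0459, 0 and 0.459 CPM in Col-0 intact pieces. Its intact libraries lay above those of Col-0 without overlap, with a log2 difference of 2.91 ± 1.3 SE that did not pass (adjusted p = 0.29). In Col-0 rootstocks PR5 had counts only in replicate 1, the library with 2514 loci counted nowhere else. In anac071,096 it was at 0.286, 0.538 and 0.36 CPM in scions, 0, 0 and 0.0953 CPM in rootstocks and 0, 0.345 and 1.84 CPM in intact pieces. The anac071,096 rootstock had 2 counts over 3 libraries and the intact group 40, a ratio of 0.0522 with a 95% counting interval of 0.00611 to 0.201. PR5 fell in this comparison (adjusted p = 0.036, edgeR's quasi-likelihood test), but the groups overlapped and the call was lost without intact replicate 3 (adjusted p = 0.39), rootstock replicate 1 (0.12) or rootstock replicate 2 (0.11). In erf114,115 PR5 reached at most 0.511 CPM.

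The order of the group means also shows how the members divided. SNC1 was highest in rootstocks of erf114,115 (138 CPM) and anac071,096 (134 CPM) and lowest in dof quadruple scions (3.32 CPM), and its lowest 3 groups were those of the dof quadruple mutant. PAD4 ran from 16.4 CPM in erf114,115 rootstocks to 3.79 CPM in anac071,096 scions, with the 4 rootstock groups highest and the 4 scion groups lowest, and only the step from anac071,096 intact pieces (7.69 CPM) to erf114,115 scions (4.72 CPM) separated neighbouring groups without overlap. EDS1 likewise had its 4 highest means in the rootstocks, where dof quadruple (73.6 CPM) lay above Col-0 (59.2 CPM) without overlap, and the remaining neighbours in the order overlapped. That difference in EDS1 did not pass the test (log2 0.31 ± 0.16 SE, adjusted p = 0.37, edgeR's quasi-likelihood test).

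Because SNC1 was the member that changed between genotypes, its surroundings on chromosome 4 were looked at after its values had been seen. Within 100 kb of SNC1, 35 other loci were tested, and 10 of them fell in the dof quadruple mutant in all 3 tissues. Over all tested loci, 1.1% were lower in dof quadruple scions, 2.09% in rootstocks and 1.73% in intact pieces. The share of all loci lower in all 3 tissues was not computed. The 10 ran from AT4G16745 at -92.6 kb from SNC1, towards lower coordinates, to RLM3 (AT4G16990) at 56.1 kb. In scions the AT4G16745 call was lost without dof quadruple scion replicate 2 (adjusted p = 0.054), and the AT4G16880 call without dof quadruple scion replicate 2 (0.11), dof quadruple scion replicate 3 (0.09) or Col-0 scion replicate 3 (0.22). RLM3, a TIR-domain protein reported in resistance to fungal pathogens, averaged 3.07 CPM in dof quadruple scions and 22.9 in Col-0 scions, 9.42 CPM in dof quadruple rootstocks and 45.3 in Col-0 rootstocks, and 10.4 CPM in dof quadruple intact pieces and 49.4 in Col-0 intact pieces. Its log2 differences were -2.90, -2.26 and -2.24. ACX1, a peroxisomal acyl-CoA oxidase at -79.3 kb, was lower by -0.77, -0.88 and -0.64 in scions, rootstocks and intact pieces. In the 100 kb bin on the left side of SNC1, SNC1 itself left out, 8 of 17 tested loci passed in each tissue (47.1%), and in the bin on the right side 11.1% in scions, 16.7% in rootstocks and 22.2% in intact pieces, of 18 loci. The other 8 bins of 100 kb out to 500 kb on either side held 0 to 18.2% of loci passing. Over all tested loci, 1.5% passed in scions, 3.73% in rootstocks and 4.59% in intact pieces. The bin percentages and these shares count both directions.

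Not all genes of the region moved together. RPP4 (AT4G16860) and RPP5 (AT4G16950), receptors of the same gene cluster, did not pass, with log2 differences of -0.77, -1.15 and -1.34 for RPP4 and -0.81, -1.05 and -1.12 for RPP5 in scions, rootstocks and intact pieces. Their neighbour AT4G16920 rose in dof quadruple intact pieces, at 25.9 ± 9.98 CPM against 6.69 ± 4.19 CPM in Col-0 (SD, n = 3 each; log2 1.95, adjusted p = 0.011), a call lost without dof quadruple intact replicate 2 (adjusted p = 0.074), Col-0 intact replicate 1 (0.088) or Col-0 intact replicate 3 (0.091). The members of this cluster resemble each other in sequence, and how reads mapping to several of them were treated was not stated, so single values are uncertain. In the other mutants 2 of the loci passed: AT4G16745 was lower in erf114,115 scions (-2.07, adjusted p = 0.035) and rootstocks (-2.4, 0.012), and AT4G16790 in anac071,096 rootstocks (-0.7, 0.028).

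**Figure D3:**
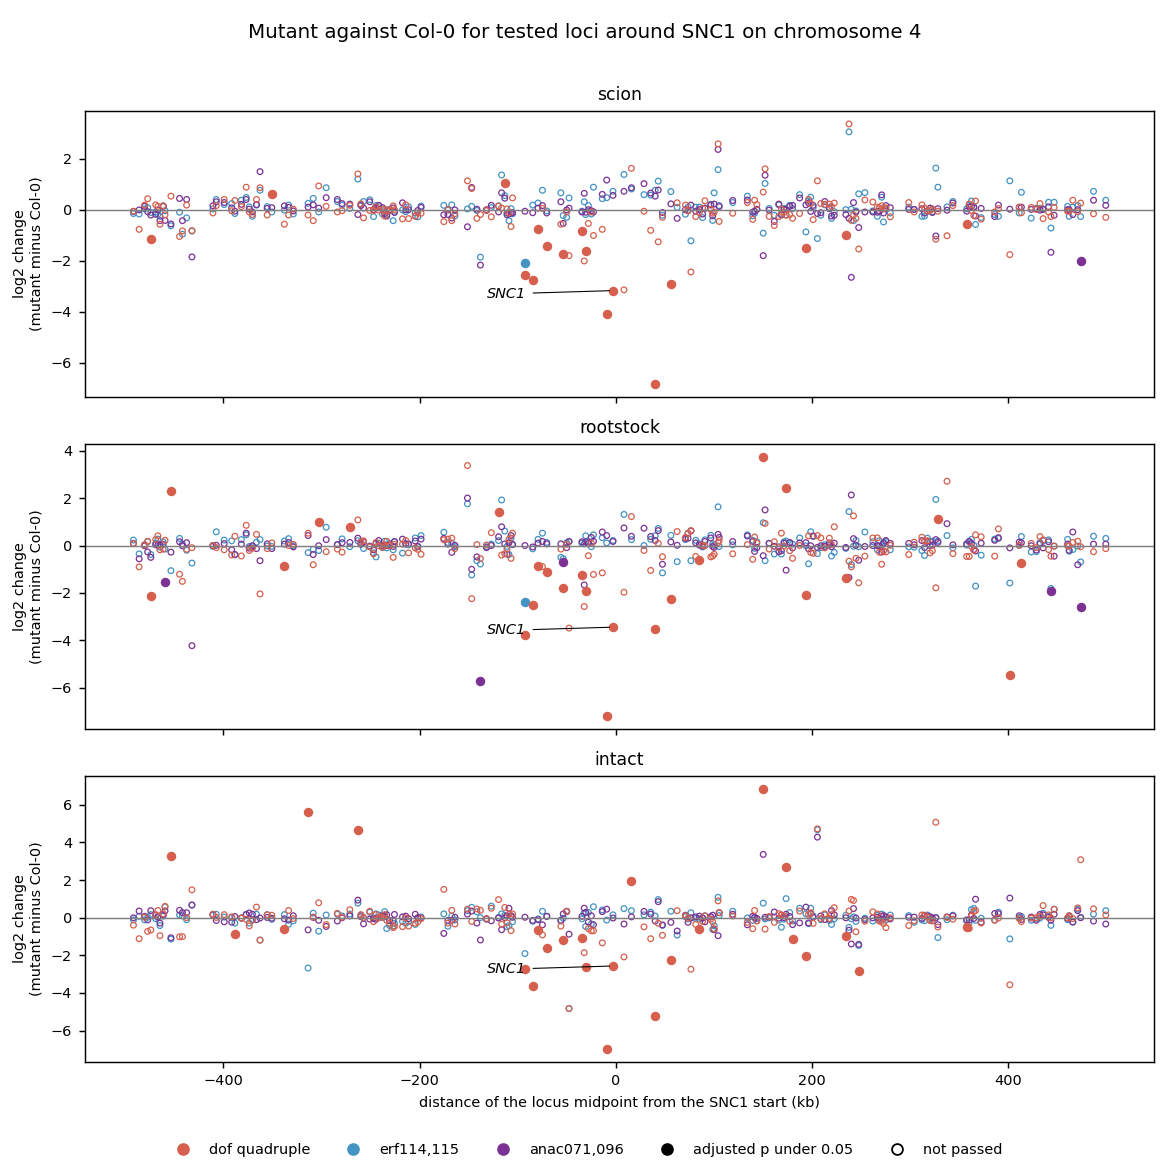
Log2 differences between each mutant and Col-0 for tested loci within 500 kb on either side of SNC1, plotted by distance from SNC1, with a panel for each of scion, rootstock and intact tissue. In the dof quadruple mutant, the 10 loci within 100 kb of SNC1 that were lower in all 3 tissues lie between -92.6 kb and 56.1 kb. Some lower loci also lie beyond 100 kb.

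For members whose 12 group means spanned a log2 range of at least 2, the 3 tested loci with the smallest root mean square difference of centred group means were listed, as a description. SNC1 was followed most closely by AT2G14080 on chromosome 2 (0.353), RAP2.6 on chromosome 1 (0.419) and its neighbour RLM3 (0.446). AT2G14080 averaged 2.73 CPM in dof quadruple scions and 16.6 in Col-0 scions, 6.02 CPM in dof quadruple rootstocks and 47.7 in Col-0 rootstocks, and 8.1 CPM in dof quadruple intact pieces and 38.6 in Col-0 intact pieces. RAP2.6, an AP2/ERF-family transcription factor, averaged 2.88 CPM in dof quadruple scions and 13.7 in Col-0 scions, 6.11 CPM in dof quadruple rootstocks and 49.5 in Col-0 rootstocks, and 4.86 CPM in dof quadruple intact pieces and 50.7 in Col-0 intact pieces. PAD4 was matched by GRF6 (0.11), STY46 (0.115) and AT5G62865 (0.117). The nearest loci to WRKY70 (ABCI4, 0.312), PBS3 (LCR31, 0.526) and PR5 (AGP13, 0.529) were more distant on the same measure.

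Other genes of the salicylate pathway were followed in lists by role, 61 loci of which 53 were tested. In dof quadruple, scions against intact tissue had 12 higher and 21 lower, with a median log2 change of -0.42, where 28.7% of all tested loci were higher and 25.6% lower. The rootstocks had 18 higher and 7 lower, with a median of 0.34, where 22.9% of all loci were higher and 17.4% lower. In erf114,115, scions had 19 higher and 12 lower, with a median of 0.15, where 28.7% and 21.6% of all loci were called. The rootstocks had 24 higher and 6 lower, with a median of 0.79, where 26.9% and 17.9% were called. In anac071,096, scions had 16 higher and 13 lower, with a median of -0.26, where 27% and 22.9% of all loci were called. The rootstocks had 20 higher and 7 lower, with a median of 0.48, where 21.7% and 16.4% were called. In Col-0, scions had 15 higher and 16 lower, where 29% and 25.2% of all loci were called, and rootstocks 19 higher and 7 lower, where 22.6% and 17% were called. The Col-0 medians were -0.16 in scions, against 0.01 over all tested loci, and 0.40 in rootstocks, against 0.03. Over all loci the medians in the mutants lay between -0.01 and 0.08. These shares are also the background for the counts by role in Col-0 given next. Scion against rootstock in Col-0 gave 9 higher and 23 lower, where 23.5% and 22.7% of all loci were called, with a median of -0.64, against 0.08 over all tested loci. More of these genes were thus lower than higher in the scion than in the rootstock.

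Among synthesis and export genes in Col-0, EDS5, the transporter that carries isochorismate out of the chloroplast, averaged 13.8 CPM in scions, 1.22 CPM in rootstocks and 6 CPM in intact pieces. It was higher in scions and lower in rootstocks than in intact tissue (log2 1.21 and -2.31, adjusted p = 0.014 and 0.00016), and the scion call was lost without intact replicate 1 (0.069). EPS1, which acts after PBS3, had the same pattern, with 52.2, 12.1 and 24.3 CPM in scions, rootstocks and intact pieces. This order of tissues is the reverse of that of PAD4. PAL3, a phenylalanine ammonia-lyase of the alternative route, fell in both graft sides, to 43.4 CPM in scions and 24.4 CPM in rootstocks, against 93.6 CPM in intact pieces (log2 -1.11 and -1.94, adjusted p = 1.8e-05 and 3.5e-09). Of the 7 genes of this list, 2 rose and 2 fell in scions and 1 rose and 4 fell in rootstocks.

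Of 8 transcriptional regulators of synthesis in Col-0, 2 rose and 2 fell in the scion, and 3 rose and 0 fell in the rootstock. WRKY28 was at 15.1 CPM in scions, 31.1 CPM in rootstocks and 0.135 CPM in intact pieces (log2 6.61 and 7.65). CBP60g was at 2.72 CPM in scions, 13.4 CPM in rootstocks and 2.98 CPM in intact pieces, and its rise in the rootstock passed (log2 2.18, adjusted p = 4.5e-05). WRKY46 rose on both sides (2.31 in scions and 2.95 in rootstocks). ICS1 itself was lower on both sides in Col-0, as given above. The list includes the CAMTA factors, which repress salicylate synthesis.

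Enzymes that modify salicylate rose in the rootstock, 4 of 4 tested in Col-0, where 22.6% of all loci rose. DMR6, which hydroxylates salicylate, averaged 2.88 CPM in scions, 48.7 CPM in rootstocks and 4.83 CPM in intact pieces (rootstock against intact log2 3.34, adjusted p = 3.5e-10). The glucosyltransferase UGT74F2 averaged 18.5 CPM in scions, 102 CPM in rootstocks and 25.2 CPM in intact pieces (2.02, 9.5e-09). Its relative UGT74F1 instead was highest in scions, at 5.11 CPM against 1.44 CPM in rootstocks and 0.529 CPM in intact pieces, and its rootstock rise (1.46, 0.0099) was lost without intact replicate 2 (0.082). SARD4, of the pipecolate route, rose in scions (log2 1.81, adjusted p = 1.8e-05).

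The salicylate receptors NPR3 and NPR4 were lower in the scion than in the rootstock. NPR3 averaged 15.9 CPM in scions, 50.3 CPM in rootstocks and 20 CPM in intact pieces, and NPR4 8.74, 26.9 and 19.1 CPM in the same tissues of Col-0. Scion against rootstock gave log2 -1.66 for NPR3 (adjusted p = 3.3e-08) and -1.63 for NPR4 (1.9e-07). NIMIN3, a partner of NPR1, fell in rootstocks (-2.33, 5.1e-09). Over the 11 tested perception genes, 1 rose and 6 fell in scions and 3 rose and 3 fell in rootstocks.

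Of the 7 EDS1 partners and helper receptors in Col-0, 2 rose and 1 fell in scions and 4 rose and 0 fell in rootstocks. SAG101, the other partner of EDS1, was at 26.1 CPM in scions, 31.5 CPM in rootstocks and 9.39 CPM in intact pieces and rose on both sides (log2 1.48 and 1.75). The helper receptor ADR1-L2 was at 44, 84.8 and 28.1 CPM in the same tissues, with a rootstock rise of 1.60 (adjusted p = 1.2e-10). ADR1 rose in rootstocks by 1.27 (2.6e-07). In the RPP5 cluster of SNC1, 4 of 5 genes fell in Col-0 scions and 0 passed in rootstocks, with medians of -1.8 and 0.1. RPP5 and RPP4 had log2 changes of -1.80 and -1.87 in scions. This is the tissue pattern of SNC1, whose scion change in Col-0 was -1.72.

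Among the salicylate-related WRKY genes, 5 tested, 2 rose in Col-0 scions and 3 in rootstocks, and 0 fell. WRKY60 averaged 60.2 CPM in scions, 19.1 CPM in rootstocks and 4.25 CPM in intact pieces, WRKY18 67.8, 98.6 and 16.5 CPM, and WRKY40 3.78, 33.9 and 5.57 CPM in the same tissues. WRKY60 thus peaked in the scion and WRKY40 in the rootstock (scion against rootstock log2 1.65 and -3.16). Other salicylate outputs were scarce, like the PR members, and of 5 tested, 3 rose and 0 fell in Col-0 scions and 1 rose and 0 fell in rootstocks. GRX480 averaged 0.498 CPM in scions, 2.36 CPM in rootstocks and 0.563 CPM in intact pieces, and its rootstock rise (2.10, adjusted p = 0.031) was lost without intact replicate 2 (0.14), intact replicate 3 (0.13) or rootstock replicate 2 (0.19). PNP-A averaged 0.49 CPM in scions, 0.112 CPM in rootstocks and 0 CPM in intact pieces. It was at least 12.2-fold higher in scions, taking 3 counts over the intact group as the floor (adjusted p = 0.011), and the call was kept in all alternatives. AIG1 averaged 2.27 CPM in scions, 1.29 CPM in rootstocks and 0.0117 CPM in intact pieces, and had 185 counts in scions and 1 in intact pieces, a ratio of 165 with a 95% counting interval of 29.2 to 6540. Its scion rise (adjusted p = 0.022) was lost without intact replicate 1 (0.068), 2 (0.072) or 3 (0.069), without scion replicate 1 (0.06) and with no filter on low counts (0.056). NUDT6 averaged 0.781 CPM in scions, 0.11 CPM in rootstocks and 0.0466 CPM in intact pieces, and its scion rise (3.77, 0.048) was lost without intact replicate 1 or 3 (both 0.13), without scion replicate 1 (0.1), 2 (0.074) or 3 (0.054), with no filter (0.077) and with a replicate block (0.059). Of the outputs of jasmonate and ethylene signalling, PR4 rose to 17.3 CPM in scions and 15.1 CPM in rootstocks, against 4.36 CPM in intact pieces (log2 1.99 and 1.79, adjusted p = 0.001 and 0.004), and OSM34 averaged 0.0124 CPM in scions, 0.674 CPM in rootstocks and 0.0466 CPM in intact pieces.

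**Figure D4:**
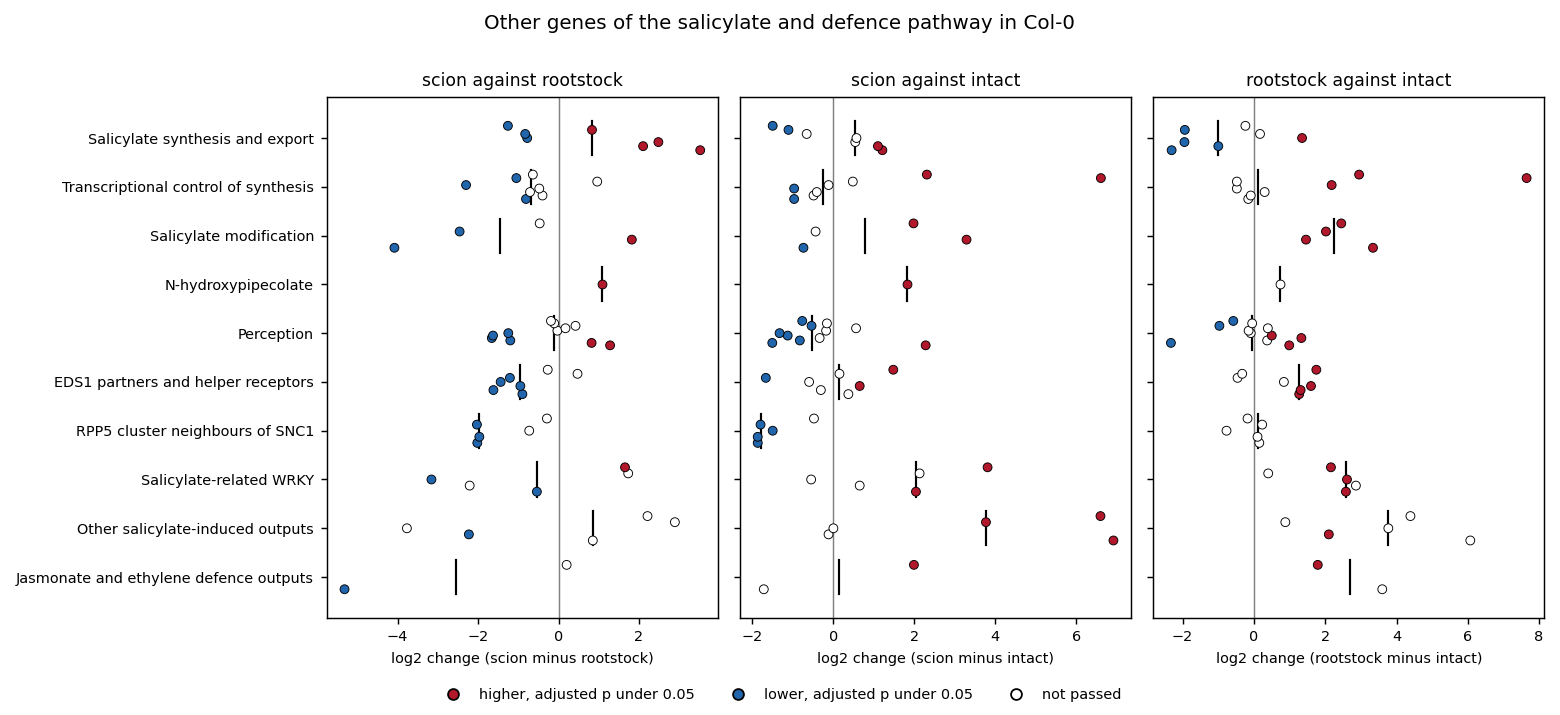
Log2 changes of the other pathway genes in Col-0, grouped by role, for scion against intact, rootstock against intact and scion against rootstock; bars mark the list medians. Salicylate modification has a median of 0.77 in scions and 2.24 in rootstocks, and the RPP5 cluster a median of -1.8 in scions.

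Against Col-0, the dof quadruple mutant had 4 other pathway genes higher and 0 lower in intact pieces, 0 in either direction in scions, and 2 higher and 3 lower in rootstocks. These counts are out of 53 tested genes. Over all loci, 4.59% were called in intact pieces, 1.5% in scions and 3.73% in rootstocks. Whether the pathway genes differ from loci in general was not tested. In intact pieces WRKY28 averaged 2.18 CPM in dof quadruple and 0.135 CPM in Col-0 (log2 3.77, adjusted p = 0.00032), and WRKY60 averaged 18 CPM in dof quadruple and 4.25 CPM in Col-0 (2.07, 6.6e-05). UGT74F1 was also higher there (1.55, 0.038), a call lost without dof quadruple intact replicate 1 (0.21) or 3 (0.055), without Col-0 intact replicate 1 (0.083) or 2 (0.2), and with no filter on low counts (0.051). The remaining gene was AT4G16920. In rootstocks PAL2 averaged 321 CPM in dof quadruple and 114 CPM in Col-0 (1.5, adjusted p = 0.0016) and PAL4 39.3 CPM in dof quadruple and 13.2 CPM in Col-0 (1.57, 0.013). UGT74F2 fell to 40.3 CPM in dof quadruple rootstocks, against 102 CPM in Col-0 (-1.34, 0.00013), DMR6 to 23 CPM, against 48.7 CPM in Col-0 (-1.08, 0.022), and ADR1 to 20 CPM, against 33.3 CPM in Col-0 (-0.74, 0.006). The PAL4 call was lost without Col-0 rootstock replicate 3 (0.1) or dof quadruple rootstock replicate 1 (0.091). The DMR6 call was lost without Col-0 rootstock replicate 3 (0.11), dof quadruple rootstock replicate 2 (0.12) or dof quadruple rootstock replicate 3 (0.097), and the ADR1 call without Col-0 rootstock replicate 2 (0.073). In erf114,115 the single call was PAL3, lower in scions (24.1 CPM, against 43.4 CPM in Col-0, log2 -0.85, adjusted p = 0.023) and rootstocks (10.4 CPM, against 24.4 CPM in Col-0, -1.23, 0.0011), and the scion call was lost without erf114,115 scion replicate 2 (0.18) or 3 (0.12) or Col-0 scion replicate 1 (0.17) or 3 (0.092). In anac071,096 against Col-0, 0 of these genes passed. Over all loci, 0.893% were called in erf114,115 scions, 0.38% in its rootstocks and 0.0308% in its intact pieces. For anac071,096 these shares were 0.385%, 0.863% and 0.0411%.

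Markers of cell types also differed between the pieces, and some differed between genotypes. Their part in the tissue and genotype results was not tested. Summed over 3 genes of photosynthetic tissue, all detected in every group, levels were 2860 to 4230 CPM in scions, 7960 to 13700 CPM in rootstocks and 14600 to 23400 CPM in intact pieces. Guard-cell markers, 3 genes, summed to 9.11 to 16.4 CPM in scions, 8.26 to 19.5 CPM in rootstocks and 22.1 to 32.4 CPM in intact pieces. Epidermal markers, 2 genes, summed to 37.1 to 85.3 CPM in scions, 40.8 to 60.3 CPM in rootstocks and 83.5 to 158 CPM in intact pieces. Within each genotype, both graft sides thus held less of these transcripts than intact tissue. Xylem markers, 2 genes, summed to 52.3 to 150 CPM in scions, 6.93 to 39.6 CPM in rootstocks and 65.7 to 169 CPM in intact pieces, and phloem markers, 3 genes, to 72.4 to 133 CPM in scions, 77.4 to 163 CPM in rootstocks and 150 to 250 CPM in intact pieces. Shoot meristem markers reached at most 15 CPM in scions and 0.934 CPM in rootstocks, and 1 or 2 of the 3 were at 0 in every group. Some sums did not overlap between dof quadruple and Col-0. Epidermal sums were lower in dof quadruple scions (37.1 to 43 CPM, Col-0 60.6 to 70.6) and intact pieces (83.5 to 94.8, Col-0 117 to 144). Xylem sums were higher in its rootstocks (27.3 to 39.6, Col-0 6.93 to 23.2). Shoot meristem sums were higher in its intact pieces (6.52 to 8.72, Col-0 2.13 to 3.72) and rootstocks (0.627 to 0.934, Col-0 0 to 0.349).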

How the data were processed

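RNA-seq reads of 36 libraries had been counted per locus by the authors and deposited as whole-number counts, not normalized. The submitters' processing notes name fastp, HISAT2, HTSeq and DESeq2 and the TAIR10 build, with no versions. Strand setting, annotation release and treatment of multi-mapping reads were not given in the sources used here. Groups were taken from the sample labels. The 33341 loci were filtered with filterByExpr at a minimum count of 10, scaled by TMM and fitted with edgeR 4.0.16 (R 4.3.3; quasi-likelihood test, robust, 1 mean for each of 12 groups, 24 residual degrees of freedom) in all 36 libraries together. Each of 27 comparisons was adjusted by Benjamini-Hochberg over 19476 loci, with a threshold of 0.05. The biological coefficient of variation was 25.8%. The script was tested on simulated data. CPM scales the count by the library total times its TMM factor, and CPM per kb divides this by the exon length of the locus. Gene positions and sequences came from TAIR10.1, where 33056 of the loci were found. Ratios of low counts carry 95% exact intervals for counting error only.

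The members and lists were chosen with earlier results of these data known. The genes named from each list were up to 3 with the smallest adjusted p among the Col-0 tissue comparisons and the mutant comparisons, plus genes called between a mutant and Col-0. Alternatives were size factors of the DESeq2 type, upper-quartile scaling, no filter, the DESeq2 1.42.0 Wald test, a replicate block, and each library left out in turn. Labels number replicates 1 to 3 in every group, but nothing ties equal numbers to a shared day or plant, and same-numbered libraries did not deviate together in every pair. Even so, 29 of 36 libraries correlated best with their own number, and the main test has no replicate block. The series design calls replicates biological without saying which cultures they came from, so p-values measure the spread between these libraries. No 2 libraries held identical counts.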

Additional observations from a re-analysis of the deposited data

Results flagged for a closer look

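Differences between a mutant's response to grafting and that of Col-0 were tested with edgeR's quasi-likelihood test and Benjamini-Hochberg adjustment. Among the other pathway genes, outside the 10 genes and with 53 tested in each comparison, 7 pairs of gene and tissue passed. In dof quadruple, 2 passed in scions and 4 in rootstocks, where 0.945% and 0.899% of all tested loci were called. In erf114,115, 0 passed in scions and 1 in rootstocks, where 0.0513% and 0.0462% were called. In anac071,096, 0 passed in either tissue, where 0.0462% and 0.205% were called. Whether these genes differ from loci in general was not tested. In dof quadruple scions the response of WRKY28 was smaller than in Col-0 by -3.34 ± 0.81 (log2, SE; adjusted p = 0.034) and that of WRKY60 by -1.86 ± 0.44 (0.032). In dof quadruple rootstocks it differed for WRKY28 by -3.48 ± 0.80 (0.024), for the glucosyltransferase UGT74F2 by -1.46 ± 0.30 (0.0085), for the helper receptor ADR1 by -0.99 ± 0.23 (0.027) and for ADR1-L2 by -0.85 ± 0.19 (0.02). In erf114,115 rootstocks it differed for PAL3 by -1.40 ± 0.28 (0.047).

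For the scion responses of WRKY28 and WRKY60, the levels of the 2 genotypes differed mainly in the intact tissue. WRKY28 averaged 20.3 CPM in dof quadruple scions and 15.1 CPM in Col-0 scions, and 2.18 CPM in dof quadruple intact pieces and 0.135 CPM in Col-0 intact pieces. That Col-0 intact level lies within the range of the floor of 3 counts in a library, 0.0852 to 0.168 CPM. WRKY60 averaged 69.4 CPM in dof quadruple scions and 60.2 CPM in Col-0 scions, and 18 CPM in dof quadruple intact pieces and 4.25 CPM in Col-0 intact pieces. The UGT74F2 difference lay in the rootstock, at 40.3 CPM in dof quadruple and 102 CPM in Col-0, against 27.4 CPM in dof quadruple intact pieces and 25.2 CPM in Col-0 intact pieces. Of the 17 alternatives for each, 8 ended the WRKY28 and WRKY60 calls in scions, 7 the WRKY28 call, 11 the ADR1 call and 6 the ADR1-L2 call in rootstocks, and 13 the PAL3 call, while the UGT74F2 call was kept in all.

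For WRKY70, scion against rootstock went opposite ways in every library of 2 genotypes: the log2 change was 0.99 in dof quadruple, with scions at 3.78 to 3.95 CPM and rootstocks at 1.68 to 2.25 CPM, and -0.61 in Col-0, with scions at 3.79 to 4.9 CPM and rootstocks at 6.33 to 7.13 CPM. Neither change passed by itself, and the difference between these genotypes in scion against rootstock was not tested.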

How the results depend on the processing

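Of the 39 calls of members, 24 were kept in all alternatives and 15 were lost in at least 1, and 11 of the 150 uncalled values passed in at least 1; none reversed. Leaving out 1 library at a time gave 1 to 2 called members in Col-0 rootstock against intact, 2 to 4 in dof quadruple, 0 to 3 in erf114,115 and 1 to 3 in anac071,096, and 2 to 3 in erf114,115 scion against rootstock. Without a filter 1 member passed in erf114,115 rootstock against intact, upper-quartile scaling left 2 in erf114,115 scion against rootstock, and DESeq2 called 2 in dof quadruple against Col-0 rootstocks, SNC1 and WRKY70. With a replicate block, 3 members passed in Col-0 rootstock against intact (PAD4 added, adjusted p = 0.037) and ICS1 passed in erf114,115 rootstock against intact (0.027). Same-numbered libraries of different groups deviated with a mean correlation of 0.085 (-0.38 to 0.68), against -0.042 for libraries of different numbers. Of the same-numbered pairs 48% were over 0.1, and 29 of 36 libraries correlated best with their own number. This is a hint of a shared replicate effect from the data and not from the design. Upper-quartile scaling moved the median of all loci by -0.11 to -0.16 in rootstock against intact (Col-0, erf114,115, anac071,096) and by 0.12 to 0.17 in scion against rootstock, so small changes such as those of EDS1 are relative to that shift. Of 92 calls of other pathway genes in Col-0, 69 were kept in all alternatives. The cause of these changes was not tested. Depth limits FMO1, PR1, PR2, PBS3 and PR5.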
